A study of Equus caballus with 4 samples.

Results

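The genes described here are the ISG15 conjugation and viperin group: ISG15, UBA7, HERC5, HERC6, RSAD2, CMPK2, IFI44, IFI44L, IFI35 and BST2. They were found on the arrays by an exact match of the probe's gene symbol. This gave 11 probes of the 43603 different probes on the array, for 9 of the 10 genes. HERC5 had 3 probes and the other genes had 1 each. No probe carried the symbol CMPK2, but 3 probes listed under the transcript ENSECAT00000013227 are described in the files as mitochondrial cytidine monophosphate kinase 2. Their values are given apart from the counts of the group. All 10 genes have an entry under the same symbol in the RefSeq annotation of a thoroughbred horse assembly.

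Expression was measured in equine satellite cells, the stem cells of skeletal muscle, taken from m. semitendinosus of 6-month-old stallions and differentiated until day 3. The HMB-treated group received 50 µM β-hydroxy-β-methylbutyrate (HMB), a metabolite of leucine, for 24 h, with 3 mM H2O2 in the last 1 h. The control group was exposed to H2O2 without HMB, so both groups carry the peroxide exposure and a group without peroxide was not analysed here. Each of 4 arrays on 1 slide took Cy5-labeled RNA of the HMB-treated group together with Cy3-labeled RNA of the control group. The dyes were not swapped, so the treatment and the dye cannot be told apart. The labels number the HMB-treated samples as biological replicates 1 to 4 but give the control the same number on each array, and the methods chose the best-scoring culture. The arrays therefore need not stand for 4 horses or 4 control samples, and the errors below measure the spread between these arrays. Their number limits the precision of each value.

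ISG15 is a small protein built like ubiquitin. It is activated by UBA7 (the E1 enzyme), passed to UBE2L6 (the E2 enzyme) and joined to target proteins by ligases of the HERC family, of which HERC5 is the main one in human cells, whereas HERC6 has this role in mice. USP18 removes it again. RSAD2 encodes viperin, a radical SAM enzyme that turns CTP into a chain-terminating nucleotide, and CMPK2 is a mitochondrial nucleotide kinase encoded beside it. IFI44 and IFI44L are related proteins of the cytoplasm, IFI35 is a leucine zipper protein that binds NMI, and BST2 (tetherin) holds budding virus particles at the cell surface. All of these genes are known as targets of type I interferon, mostly through ISGF3, a transcription factor complex that holds STAT2 and IRF9.

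What each ratio reports is set by the 60 bases of its probe. Probes are shown for ISG15, UBA7 and HERC5 of the conjugation pathway and for the RSAD2 and CMPK2 pair. They are shown because the weight of their values depends on where the probe lies and on whether probes of 1 gene share bases. The HERC6 probe and the other CMPK2 probes are not printed. In ISG15 the capitals mark the last 13 bases, which belong to the codons of the tail that is joined to target proteins. In HERC5 they mark the bases that 2 of the probes share.
ISG15 probe A_69_P088111: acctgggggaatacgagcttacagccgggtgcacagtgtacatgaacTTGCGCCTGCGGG
UBA7 probe A_69_P055961: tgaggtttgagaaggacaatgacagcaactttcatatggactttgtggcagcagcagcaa
HERC5 probe A_69_P082946: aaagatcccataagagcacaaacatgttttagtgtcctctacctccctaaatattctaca
HERC5 probe A_69_P112811: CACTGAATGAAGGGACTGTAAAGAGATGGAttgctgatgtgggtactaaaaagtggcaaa
HERC5 probe A_69_P112812: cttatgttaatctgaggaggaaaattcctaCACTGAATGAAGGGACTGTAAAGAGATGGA
RSAD2 probe A_69_P060736: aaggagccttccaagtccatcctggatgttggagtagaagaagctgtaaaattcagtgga
CMPK2 probe A_69_P060741: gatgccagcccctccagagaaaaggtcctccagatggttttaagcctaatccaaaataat

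Coordinates are those in the files, on the EquCab1 build, and the files do not say which exon a probe lies in. The ISG15 probe is placed at chrUn:254070794-254070853 on the minus strand, in sequence not assigned to a chromosome. The UBA7 probe runs over chr16:37389894-37390232 on the plus strand, a span of 339 bases for a probe of 60, so its bases are not contiguous in that build. On chromosome 3, the HERC5 probe A_69_P082946 lies at chr3:49937637-49937696 and starts at base 2772 of its transcript. The other HERC5 probes lie at chr3:49904993-49905052 and chr3:49904963-49905022, start at bases 991 and 961, and have 30 bases in common. They share at most 5 consecutive bases with the first probe. The HERC6 probe lies at chr3:49888171-49888230. The RSAD2 probe lies at chr15:82669576-82669635 on the minus strand and the CMPK2 probe shown at chr15:82705192-82705251, with the other CMPK2 probes shifted by single bases so that neighbours have 59 bases in common. The IFI44 and IFI44L probes lie at chr5:57398964-57399023 and chr5:57421746-57421805, the IFI35 probe lies at chr11:18913717-18913776, and the BST2 probe is listed as unmapped.

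In the RefSeq annotation, 3 pairs of the group are direct neighbours among protein-coding genes, namely HERC5 with HERC6, RSAD2 with CMPK2, and IFI44 with IFI44L. Their probes differ clearly in sequence. The HERC6 probe shares at most 8 consecutive bases with a HERC5 probe, the IFI44 and IFI44L probes share at most 6, and the RSAD2 and CMPK2 probes at most 5. No probe of the group shares more than 15 consecutive bases with a probe listed under another gene.

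All 9 genes with a probe were higher in the HMB-treated group, on each of the 4 arrays and with each of the 11 probes. In the 6 genes that were measured in both groups on all arrays, the log2 ratio of Cy5 over Cy3 ranged from 3.01 in IFI44 to 4.82 in HERC6. The deposited ratio of RSAD2 was higher, at 5.37, but its control signal is a surrogate on all 4 arrays. The median over the 9 genes was 3.45, compared with -0.07 over all 24669 tested probes. A probe was tested if 1 channel was well above background on all 4 arrays, by the flag of the scanner software. A call needed a fold change (FC) of at least 1.3 and, in limma, a p of at most 0.05 after Benjamini-Hochberg correction over all tested probes. All 9 genes were called higher, whereas 12.1% of all tested probes were called higher and 28.6% were called in either direction. UBA7, RSAD2, BST2 and 2 of the HERC5 probes passed the filter through the Cy5 channel alone, so for them a difference was needed to be tested at all. The control channel was well above background on all 4 arrays for ISG15, HERC5, HERC6, IFI44, IFI44L and IFI35. These 6 genes were called higher also when both channels had to be well above background, with a median log2 ratio of 3.20 and with 11.2% of the probes tested in that way called higher.

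**Figure D1:**
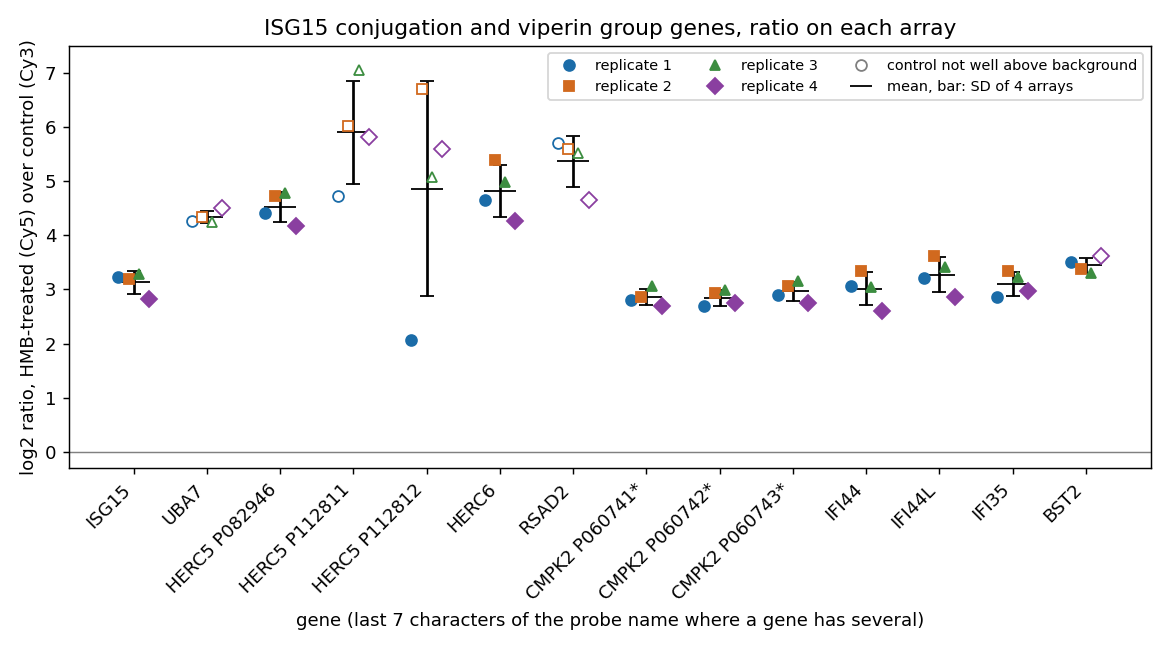
Log2 ratio of HMB-treated (Cy5) over control (Cy3) for each probe, with a point for each of the 4 arrays, the mean as a horizontal line and the SD as a bar. Open points mark arrays on which the control channel was not well above background, and asterisks mark the CMPK2 probes, which were matched by description. All points lie above 2, and the overlapping HERC5 probes spread most.

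The modifier itself, ISG15, was bright in both groups. Its processed Cy3 signal in the control group was 25818, 26714, 30939 and 25487 on replicates 1 to 4, and its Cy5 signal in the HMB-treated group was 242090, 245526, 300725 and 180295. The channels do not overlap on any array. The log2 ratios were 3.23, 3.20, 3.28 and 2.82, with replicate 4 below the rest. This gave a mean of 3.13 ± 0.21 (SD, n = 4) and an FC of 8.77 (adjusted p = 3.68e-06). ISG15 was thus well measured in cells that had received H2O2 but not HMB. None of the spots on the arrays was saturated.

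UBA7, the activating enzyme of ISG15, was dim in the control group. Its Cy3 signal was 16.4, 27.2, 29.6 and 9.09 and was not well above background on any array, whereas its Cy5 signal was 316, 550, 564 and 207 and was well above background on all 4. The log2 ratios of 4.27, 4.34, 4.25 and 4.51 had a mean of 4.34 ± 0.12, with an adjusted p of 8.92e-07. Since the control has no measured level here, the change was also computed as a bound, with the control signal set on each array to the lowest signal found well above background where its own was lower. On the deposited signals, this bound was 16.2-fold for UBA7. A control signal above that lowest signal was kept even where it was not well above background, so the bound is no strict lower limit. The bound does not hold under another background correction, since normexp with loess gave an FC of 3.29. Before background subtraction, the Cy3 brightness of the spot was between 94.2 and 109 with a local background of 41 to 54, and the Cy5 brightness was between 249 and 583 with a local background of 42 to 46. The size of the change therefore rests on how the background is removed.

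The ligase HERC5 was best measured by probe A_69_P082946, whose control signal was well above background on all 4 arrays. Its Cy3 signal was 104, 103, 134 and 121, and its Cy5 signal was 2230, 2749, 3666 and 2191. The log2 ratios were 4.42, 4.73, 4.78 and 4.18, with a mean of 4.53 ± 0.28 and an FC of 23.0 (adjusted p = 2.05e-06). With normexp the FC of this probe was 10.2, so its size also depends on the background correction. No control value came near a value of the HMB-treated group.

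The overlapping HERC5 probes gave the same direction but scattered widely. Probe A_69_P112811 gave log2 ratios of 4.72, 6.03, 7.05 and 5.81. Its control signal of 7.67 to 22.5 was not well above background on any array, and on replicate 3, where the ratio was highest, it was a surrogate. The bound for this probe was 34.4-fold on the deposited signals. With normexp its FC was 4.85, below this bound, so the bound is no strict lower limit. Probe A_69_P112812 gave 2.07, 6.70, 5.09 and 5.60. On replicate 1, the array with the lowest of these values, its control signal was 101 and well above background, but on the other arrays it was between 5.72 and 20.5 and was not. The control signal behind the highest value, on replicate 2, was a surrogate. The mean of this probe was 4.86 ± 1.98 (adjusted p = 0.00218), and without replicate 1 it was 5.80. Within arrays, A_69_P112812 minus A_69_P112811 ran from -2.65 to 0.68 on the log2 scale, although the probes lie on neighbouring bases. Both overlapping probes passed the filter through the Cy5 channel alone, so their calls add no independent support to that of the brightest probe.

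HERC6, the neighbour of HERC5, had a control signal of 458, 397, 562 and 533 and a signal of 11498, 16675, 17783 and 10246 in the HMB-treated group. Both were well above background on all 4 arrays and did not overlap. The log2 ratios of 4.65, 5.39, 4.98 and 4.27 gave a mean of 4.82 ± 0.48 and an FC of 28.3 (adjusted p = 8.84e-06). On each array the HERC6 ratio exceeded that of the brightest HERC5 probe, by 0.30 ± 0.25 on average (exact two-sided permutation of the signs, p = 0.125, the smallest that 4 arrays allow). On the deposited ratios this direction depends on the probe, since the HERC5 probe A_69_P112811 exceeded HERC6 on each array, by 1.08 ± 0.90. The control signal of A_69_P112811 was not well above background on any array. HERC6 minus the brightest HERC5 probe averaged 1.06 with normexp and 0.85 without background correction. For A_69_P112811 minus HERC6 the means were -2.14 and -1.63, so HERC6 was then above each of these HERC5 probes. Relative to ISG15, the log2 ratio was higher by 1.69 ± 0.36 for HERC6 and by 1.39 ± 0.16 for the brightest HERC5 probe, on all 4 arrays in both cases (exact p = 0.125 for each). With normexp the mean differences were 1.13 and 0.06, and without background correction 1.41 and 0.56, so the gap between HERC5 and ISG15 changed with the background correction.

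RSAD2, which encodes viperin, had the highest mean ratio of the group and the least certain size. In the control group the software replaced its Cy3 signal by a surrogate on all 4 arrays, with values of 3.72, 5.08, 5.25 and 4.28. The Cy5 signal was 193, 245, 241 and 108, well above background on all 4 arrays. The log2 ratios were 5.70, 5.59, 5.52 and 4.66, with replicate 4 lowest and the other arrays close together, and their mean was 5.37 ± 0.48 (adjusted p = 5.35e-06). The bound for RSAD2 was 9.0-fold on the deposited signals, whereas its FC was 2.52 with normexp, below this bound. Before background subtraction, the spot had a Cy3 brightness of 77.8 to 93.8 over a local background of 30 to 43.5 and a Cy5 brightness of 177 to 301 over one of 42 to 45.5.

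The 3 probes described as CMPK2 were well above background in both channels on all 4 arrays. For the probe shown above, the Cy3 signal was 384, 441, 434 and 318 and the Cy5 signal was 2689, 3217, 3625 and 2062. Its log2 ratios of 2.81, 2.87, 3.06 and 2.70 had a mean of 2.86 ± 0.15 and an FC of 7.25 (adjusted p = 2.71e-06). The other probes gave 2.84 ± 0.14 and 2.97 ± 0.18, and both were called higher. As the 3 probes cover nearly the same bases, they count as repeated measurements of 1 target.

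**Figure D2:**
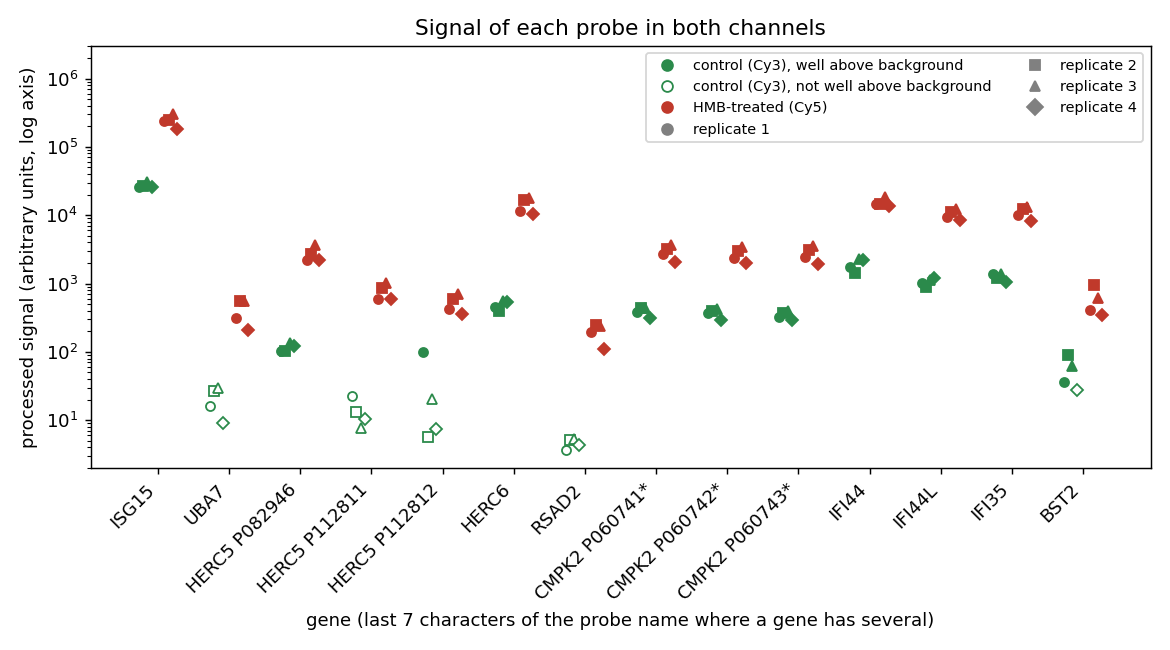
Processed signal of each probe on the 4 arrays, on a log axis, for the control group (Cy3, green) and the HMB-treated group (Cy5, red), with open points where the control was not well above background. In each probe all red points lie above all green points, and the lowest green points are those of RSAD2, between 3.72 and 5.25. Heights are not comparable between probes.

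IFI44 and IFI44L were well measured in both groups. IFI44 had a control signal of 1746, 1440, 2257 and 2228 and a signal of 14660, 14603, 18634 and 13508 with HMB. Its log2 ratios of 3.07, 3.34, 3.05 and 2.60 gave a mean of 3.01 ± 0.31 and an FC of 8.08 (adjusted p = 1.36e-05). IFI44L had control signals of 1016, 894, 1143 and 1189 and signals of 9355, 10959, 12163 and 8614 with HMB. Its log2 ratios were 3.20, 3.62, 3.41 and 2.86, with a mean of 3.27 ± 0.32 and an FC of 9.66 (adjusted p = 1.13e-05). In both genes replicate 2 was highest and replicate 4 lowest. The IFI44L ratio exceeded the IFI44 ratio on each array, by 0.26 ± 0.10 (exact two-sided permutation of the signs, p = 0.125, again the smallest possible). The mean difference was 0.16 with normexp and 0.23 without background correction.

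IFI35, the partner of NMI, had control signals of 1383, 1199, 1392 and 1039 and signals of 10071, 12219, 13102 and 8102 in the HMB-treated group. The log2 ratios were 2.86, 3.35, 3.24 and 2.96. The mean of 3.10 ± 0.23 corresponds to an FC of 8.59 (adjusted p = 4.62e-06), and no value of one group reached those of the other.

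BST2 had a low control signal of 36.4, 90.5, 62.4 and 28.0, which was well above background on replicates 1, 2 and 3 but not on replicate 4. Its Cy5 signal was 412, 939, 613 and 344. The log2 ratios of 3.50, 3.37, 3.30 and 3.62 gave a mean of 3.45 ± 0.14 and an FC of 10.9 (adjusted p = 1.51e-06). BST2 and UBA7 had their highest ratio on replicate 4, whereas 6 of the 11 probes of the group had their lowest ratio there.

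By mean log2 ratio of the brightest probe of each gene, the order was RSAD2, HERC6, HERC5, UBA7, BST2, IFI44L, ISG15, IFI35 and IFI44. The ranges over the 4 arrays of neighbours in this order overlapped, with the exception of UBA7 (lowest 4.25) and BST2 (highest 3.62). This order belongs to the deposited ratios. When the background was instead corrected with limma's normexp followed by loess, the mean log2 ratio was 1.34 for RSAD2, 1.72 for UBA7 and 1.74 for BST2, which then came last, and 3.35 for HERC5. These correspond to an FC of 2.52, 3.29, 3.34 and 10.2. With normexp the genes with a bright control moved less, to 3.29 for ISG15, 4.42 for HERC6, 2.91 for IFI44, 3.08 for IFI44L and 2.94 for IFI35. With loess and no background correction, RSAD2 was at 1.89, UBA7 and BST2 at 2.24 and HERC5 at 3.82. With median centring and no lowess, ISG15 moved up to 3.74 and RSAD2 to 7.05 (over 3 arrays). All 9 genes stayed called higher in each of these settings. When the arrays were instead shifted to the spike-in RNA, the median of all tested probes moved by -0.49 and each gene of the group by the same amount, which left a log2 ratio of 2.53 in IFI44 and 4.88 in RSAD2.

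**Figure D3:**
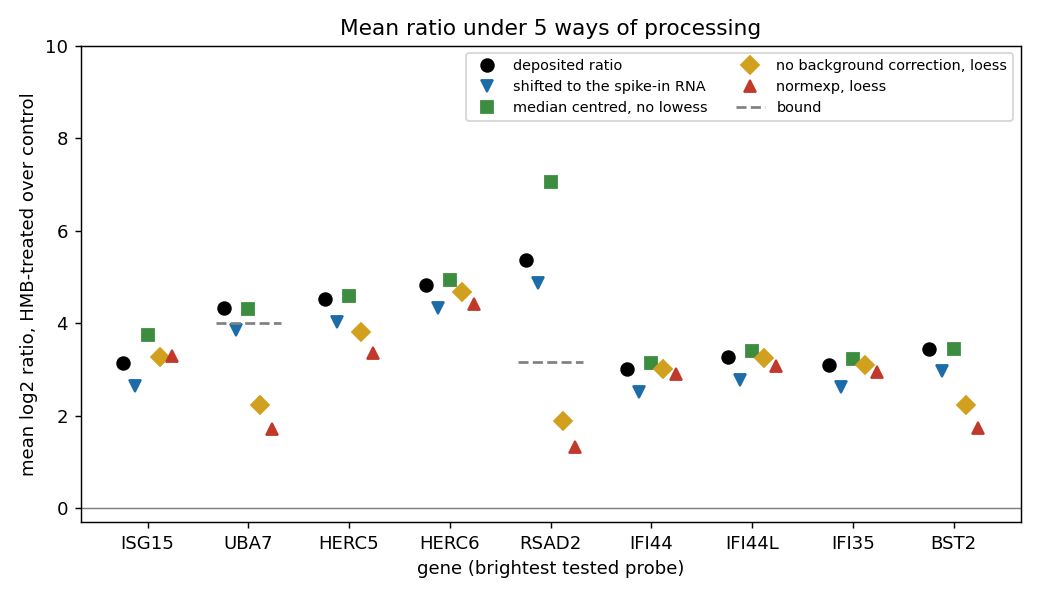
Mean log2 ratio over the arrays for the brightest probe of each of the 9 genes under 5 ways of processing, with the bound for UBA7 and RSAD2 as a dashed line. The values spread least for HERC6, IFI44, IFI44L and IFI35 and most for RSAD2, where they run from 1.34 to 7.05; the highest rests on 3 arrays.

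The remaining genes of the ISG15 pathway were examined next. Of 5 listed genes, 3 could be tested and all 3 were called higher, beside 12.1% of all tested probes. The list was chosen with earlier results of these data known, so this count is no independent support. USP18, the protease that removes ISG15, had log2 ratios of 4.27, 4.19, 4.15 and 3.53, with a mean of 4.03 ± 0.34 and an FC of 16.4 (adjusted p = 5.35e-06). UBE2L6, the conjugating enzyme, gave 3.14, 2.94, 2.93 and 2.61, with a mean of 2.90 ± 0.22 (adjusted p = 5.42e-06). Among the enzymes measured in both groups on all arrays, the conjugating UBE2L6, the ligases HERC5 and HERC6 and the protease USP18 were each called higher with HMB. NMI reached 2.34 ± 0.08 (adjusted p = 2.78e-06), below the 3.10 of its partner IFI35. TRIM25 and ARIH1, ligases also linked to this pathway, were not well above background on all arrays in either channel and were not tested.

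Of the ISGF3 subunits examined, IRF9 rose by 1.78 ± 0.19 on the log2 scale (adjusted p = 3.07e-05) and STAT2 by 0.70 ± 0.23 (adjusted p = 0.00217), both smaller changes than those of the group. With the shift to the spike-in RNA, IRF9 stayed called at 1.29 and STAT2, at 0.21, did not, and limma's treat against an FC of 1.3 did not call STAT2 either.

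Relatives of the same enzyme families, which serve ubiquitin, NEDD8 or SUMO, were compared next. Of 13 listed relatives, 10 had a probe and 9 were tested, of which 1 was called higher and 0 lower, with a median log2 ratio of -0.09. These shares lie near or below the 12.1% and 16.4% of all tested probes that were called higher and lower, and nothing particular to the relatives is read from them. The gene called higher was UBA6, an E1 enzyme of ubiquitin and FAT10, which was higher by 0.62 ± 0.16 (FC 1.53, adjusted p = 0.00160). UBA1, the main E1 enzyme of ubiquitin, had a log2 ratio of -0.09 ± 0.11 (adjusted p = 0.317), far from the value of UBA7. HERC4 was at -0.12 ± 0.02 (adjusted p = 0.145), UBE2L3 at 0.06 ± 0.13 (adjusted p = 0.512) and CMPK1, the cytosolic relative of CMPK2, at 0.05 ± 0.29 (adjusted p = 0.755). HERC1 (-0.35), UBA3 (-0.36) and NEDD8 (-0.23) passed the adjusted p but not the FC of 1.3, and were the 3 relatives with a negative ratio and an unadjusted p under 0.05. HERC1 was called lower without lowess, 1 relative was called lower when replicate 1, 2 or 4 was left out, and limma's treat called 0 of the 9. Under the shift to the spike-in RNA, 7 of the 9 were called lower, as were 70.2% of all tested probes, and UBA6 was not called, as their median moved to -0.58, close to the -0.56 of all tested probes.

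Viperin is known to bind proteins that deliver iron-sulfur clusters. All 4 of these, CIAO1, MMS19, FAM96A and FAM96B, were well above background in both channels and 0 were called, with mean log2 ratios from -0.29 in CIAO1, where replicate 4 was left out as a marked spot, to 0.01 in FAM96B. With 28.6% of all tested probes called in either direction, 0 of 4 does not set these genes apart. CIAO1 passed the adjusted p, at 0.0273, but not the FC of 1.3, and was the 1 gene of the 4 with an unadjusted p under 0.05. The methods' t-test also called 0 of the 4. With the spike-in shift all 4 were called lower, with a median of -0.68, where most probes were.

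**Figure D4:**
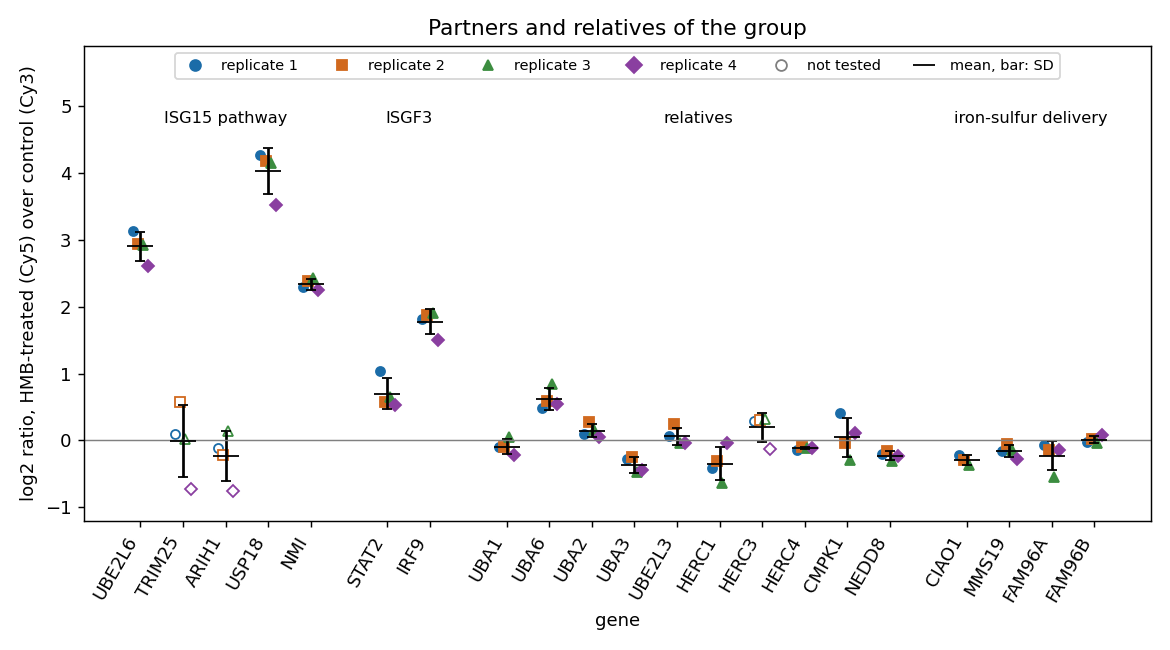
Log2 ratio on each array for genes of the ISG15 pathway, ISGF3, relatives outside the interferon programme and proteins of iron-sulfur delivery, with the mean as a line and the SD as a bar; open points mark genes that were not tested. USP18, UBE2L6, NMI and IRF9 lie well above 0 on all arrays, while the untested TRIM25 and ARIH1 have means of -0.01 and -0.23. Means of the relatives run from -0.36 in UBA3 to 0.62 in UBA6, and those of the iron-sulfur genes from -0.29 to 0.01.

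As a check of the cells, all 7 muscle markers with a probe were well above background in both channels, and 5 of them, DES, MYF5, MYH3, ACTA1 and CKM, were called lower with HMB, at log2 ratios from -0.93 to -1.49, beside 16.4% of all tested probes called lower. MYOD1, at 0.32 (adjusted p = 0.0441), and MYOG, at 0.03, were not called, and 1 muscle marker, MYOD1, was called higher when replicate 4 was left out. MYF5 moved from -1.49 to -0.71 with normexp, where it stayed called lower. The summed signal of the 7 was 166055 to 186895 in the control and 63223 to 100515 with HMB. In bulk RNA, fewer cells of a type and less RNA per cell cannot be told apart. Of the fibroblast markers, 3 of 4 were called higher, beside 12.1% of all tested probes. PDGFRA was at 1.49, and at 0.47 with normexp, where it stayed called. THY1 and DCN were at 0.76 and 0.77, while COL1A2 was at -0.23 and not called. With the spike-in shift THY1 and DCN, at 0.27 and 0.28, lost their call and COL1A2, at -0.72, was called lower. COL1A2 was called higher, at 0.70, without lowess, and lower when replicate 3 was left out. The summed signal of the fibroblast list was 272146 to 334197 in the control and 259668 to 406671 with HMB. Of 6 immune cell markers with a probe, ITGAM, CD3E and CD79A were not well above background in either channel on any array. Of the 3 tested, CD68 and NKG7 were called higher at 0.88 and 0.63, while CD14, at 0.20, was not. CD68 fell to 0.39 with normexp and with the spike-in shift, where it stayed called. Among all tested probes, 12.1% were called higher. NKG7 was not called with normexp (0.20), with no background correction, with the spike-in shift (0.15), with treat, with the methods' t-test or with no filter on dim probes. The summed immune signal was 3708 to 4464 in the control and 4209 to 6252 with HMB. The 4 endothelium markers were not well above background on any array. The part of these cell types in the values of the group was not tested.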

How the data were processed

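The deposited scanner files and a table of normalized values were used for all 4 arrays. For the intensity values, the authors' files hold the brightness of each spot, the local background and the processed signal of each channel. The deposited log10 ratios of Cy5 over Cy3 were written by Feature Extraction 10.10.1.1 (per the file headers) after background subtraction, replacement of signals at background by a surrogate, and linear and lowess normalization, which takes out a change common to most transcripts and makes ratios of dim probes depend on the surrogate. The table holds the same ratios, within 3.96e-05. Here, the deposited log10 ratios were turned to the log2 scale. Of 45220 spots, 1417 control spots and the spots that the software marked as outliers were removed, 0 of them in the group. Spots of 1 probe were averaged.

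The ratio was tested against 0 with limma 3.58.1 in R 4.3.3 (the packages data.table, version 1.17.8, and statmod, version 1.5.0) and Benjamini-Hochberg correction over 24669 probes for which 1 channel passed the well-above-background flag on each array and 3 or more arrays gave a ratio. The well-above-background share was between 57.6% and 60.6% in Cy3 and between 55.2% and 61.8% in Cy5, and ratios of pairs of arrays correlated across probes at 0.837 to 0.920. Genes with several probes are represented by the brightest tested one. Bounds used processed signals after Aquantile normalization between arrays. The genes named are all members with all probes and fixed lists of pathway genes, relatives, ISGF3 subunits, viperin partners and cell type markers. The members and lists were chosen with earlier results of these data known. Alternatives were other background corrections and scalings, other filters and tests, the authors' table, and each array left out. The tests were tried on simulated data. Spike-in values came from the file headers. A planned motif search in promoters was not run because no promoter sequence was used here. A small number of genes were dropped from the lists before counting and are not reported here.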

Additional observations from a re-analysis of the deposited data

Results flagged for a closer look

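Among the 11 probes of the group, 1 had an array set apart from the other 3 by Dixon's test. The log2 ratio of RSAD2 was 4.66 on replicate 4, against 5.52 to 5.70 on the other arrays, and the gap took 0.832 of the whole range, above the test's critical value for 4 arrays. The control signal of this probe was a surrogate on all 4 arrays. Chance sets apart about 1 in 20 groups of values, and for ISG15, where replicate 4 was also lowest, the gap took 0.824 of the range. A cause was not tested.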

How the results depend on the processing

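The 9 genes kept their direction and their call in all 150 values computed over 17 alternatives, with BST2, RSAD2 and UBA7 not tested when both channels had to be well above background. Many of these values could not change direction. The authors' table holds the same ratios and the group has 0 marked spots. The other filters and tests reuse the deposited ratio, and the mean over probes differs from it for HERC5 alone. The median log2 ratio of the genes, 3.45 in the report, was 2.94 with normexp and 3.10 with no background correction, each followed by loess, 3.74 with median centring without lowess, 2.96 with the shift to the spike-in RNA and 3.20 over the 6 genes with both channels well above background. With UBA7 and RSAD2 at their bounds it was 3.27. With each replicate left out in turn it ran from 3.41 to 3.50, and the called genes numbered 9 each time.

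Over all tested probes, 7046 were called, 42.5% of them higher. The count was 3539 with normexp (55.0% higher), 4440 without background correction (60.1% higher), 18570 with the shift to the spike-in RNA (6.72% higher) and 2822 with limma's treat against an FC of 1.3 (54.6% higher). The cause of these shifts was not tested, except that the spike-in shift moves all ratios of an array by a constant. Leaving out 1 replicate gave 6637 to 7151. Signals close to background limit the sizes for RSAD2, UBA7, BST2 and the overlapping HERC5 probes. The brightest HERC5 probe also had a low control signal, and its FC of 23.0 fell to 10.2 with normexp. A dye effect cannot be separated from the treatment on any array. Each array holds both groups, so the test of its ratio is itself paired within arrays.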
